A study of Mus musculus with 9 samples.

Results

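Toll-like receptors are the membrane proteins with which macrophages sense microbial products, and here 7 of them (Tlr1, Tlr2, Tlr3, Tlr4, Tlr7, Tlr9 and Tlr13) were followed together with the lipopolysaccharide coreceptors Cd14 and Ly96 and the shared adaptor Myd88. These 10 genes were taken by exact symbol from the 56691 genes of the deposited table, and each symbol matched 1 row. RNA came from RAW264.7, a mouse macrophage line that forms osteoclasts when given RANKL, the ligand of the receptor RANK. The 9 libraries fell into an untreated control, cells given RANKL, and cells given RANKL with uridine (RANKL + UD), with 3 libraries each and RNA taken on day 3. All groups are cultures of 1 cell line. The labels call the samples replicate biosamples but do not say whether the libraries of a group came from separate cultures. The p-values therefore measure the spread between libraries, which may be technical.

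Toll-like receptors work as dimers. Tlr2 pairs with Tlr1 or Tlr6 at the cell surface to bind bacterial lipopeptides, and Tlr4 binds lipopolysaccharide there together with the secreted protein MD-2, the product of Ly96, after Cd14 has handed the lipid over. Tlr3, Tlr7, Tlr9 and Tlr13 sit in endosomes and bind double-stranded RNA, single-stranded RNA, unmethylated CpG DNA and bacterial ribosomal RNA, respectively. Myd88 carries the signal of nearly all of these receptors to NF-κB, whereas Tlr3 uses the adaptor encoded by Ticam1 and Tlr4 uses both. The same NF-κB and MAP kinase routes lie downstream of RANK, and the comparisons ask how the receptor set of the macrophage stood after osteoclast induction without and with uridine.

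The 250 bases before the annotated transcription start are shown for the receptors in which a searched motif was found. RefSeq windows on the GRCm38.p6 build matched 6 of the 10 genes, as 7 windows because Tlr1 has alternative starts. Capitals mark matches on either strand to GAGGAA (the core bound by the myeloid factor PU.1), TGANTCA (AP-1), GGGNNTTCC (NF-κB type) or CCAAT. Positions count back from -1, the base before the start.
Tlr2, chr3:83841609-83841858, minus strand: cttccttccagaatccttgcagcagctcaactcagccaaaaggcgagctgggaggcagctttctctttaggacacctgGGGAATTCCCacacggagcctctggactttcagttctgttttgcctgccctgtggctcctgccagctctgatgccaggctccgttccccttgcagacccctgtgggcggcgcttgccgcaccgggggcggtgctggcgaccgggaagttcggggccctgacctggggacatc
Tlr1, chr5:64933559-64933808, minus strand: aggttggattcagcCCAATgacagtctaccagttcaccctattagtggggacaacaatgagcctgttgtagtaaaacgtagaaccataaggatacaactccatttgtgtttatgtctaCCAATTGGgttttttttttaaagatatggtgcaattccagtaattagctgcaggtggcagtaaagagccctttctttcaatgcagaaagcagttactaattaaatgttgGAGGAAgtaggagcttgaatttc
Tlr9, chr9:106222348-106222597, plus strand: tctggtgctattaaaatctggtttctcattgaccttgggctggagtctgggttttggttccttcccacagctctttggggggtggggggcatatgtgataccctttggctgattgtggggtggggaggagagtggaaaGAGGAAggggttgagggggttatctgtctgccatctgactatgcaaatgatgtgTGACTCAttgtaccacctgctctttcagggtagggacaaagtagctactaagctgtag
Tlr13, chrX:106143025-106143274, plus strand: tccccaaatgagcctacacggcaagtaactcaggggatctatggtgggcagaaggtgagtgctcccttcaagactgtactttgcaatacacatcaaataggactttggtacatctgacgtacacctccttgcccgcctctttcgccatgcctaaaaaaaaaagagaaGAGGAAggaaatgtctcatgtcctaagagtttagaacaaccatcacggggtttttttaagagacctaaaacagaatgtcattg

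The Tlr2 window held the NF-κB type letters on both strands, beginning at -172 and -171 of 1 overlapping stretch. The PU.1 letters began at -23 in Tlr1, at -112 in Tlr9 and at -83 in Tlr13, and Tlr9 also held the AP-1 letters at -58. The windows of Tlr3, Myd88 and the second start of Tlr1 held none of the 4 motifs. Of 32851 windows in the table, 23.3% held the PU.1 letters, 6.75% the AP-1 letters, 4.98% the NF-κB type letters and 33.8% CCAAT. These matches describe letters and show no bound factor.

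All 10 genes were expressed in every library. The lowest value was 1.03 FPKM (fragments scaled to transcript length and library depth), and all 10 passed the filter of at least 1 FPKM in 3 or more libraries that left 11995 genes to test. Total counts ranged from 15951800 to 19746862 per library. In control cells Cd14 stood highest, at rank 55 of the tested genes, followed in FPKM by Tlr2, Tlr7, Tlr13, Tlr4, Myd88, Tlr1 and Ly96, with the lowest pair, Tlr3 and Tlr9, overlapping in range. Every other neighbour in that order was separated in all control libraries.

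**Figure D1:**
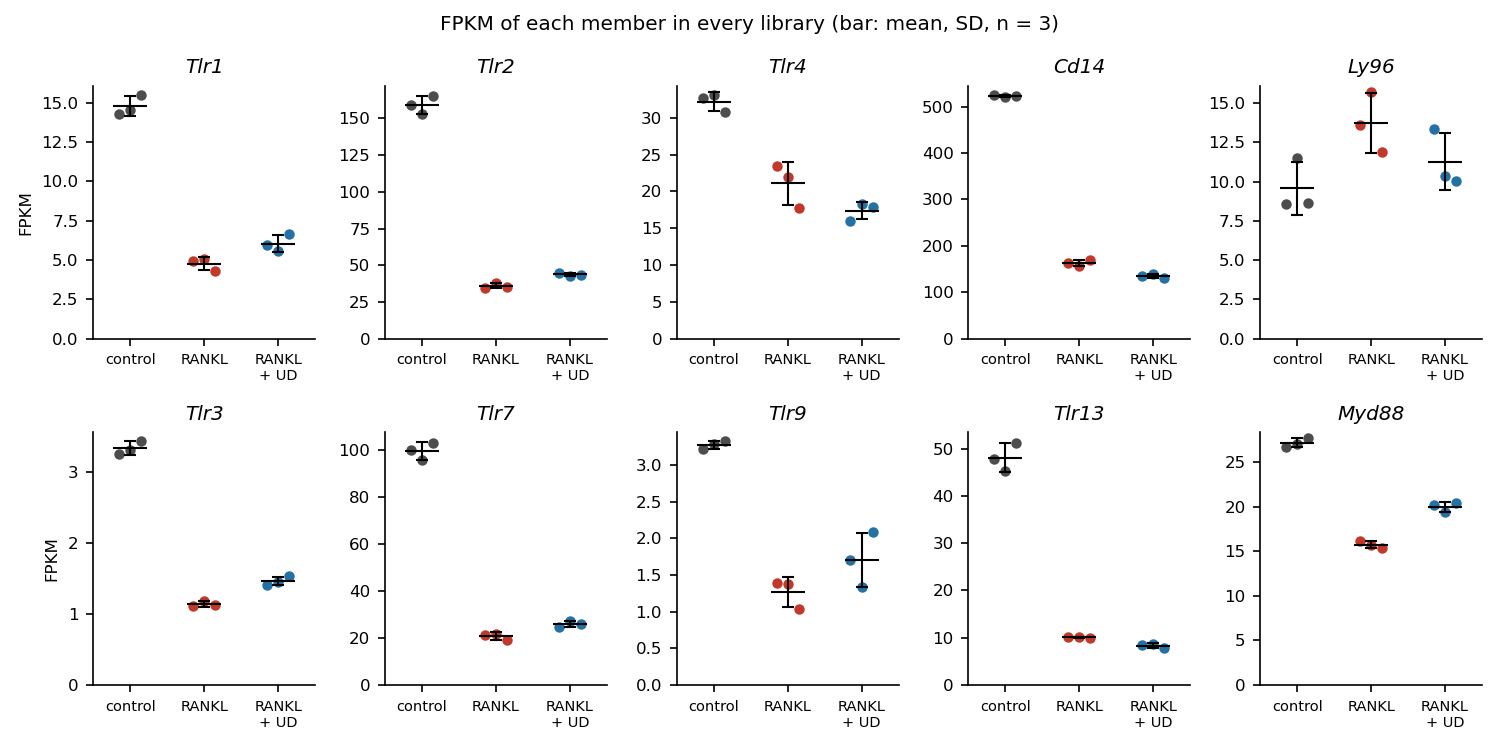
FPKM (y axis, linear from 0, scaled per gene) of the 10 genes in each library, as 1 point per library, with the group mean and SD (n = 3) in black. Control libraries sit above both treated groups in every gene except Ly96.

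Compared with control, RANKL libraries held less RNA of 9 of the 10 genes and more of Ly96 (edgeR quasi-likelihood test, adjusted p under 0.05 over all tested genes). Among all tested genes 30.2% were called lower and 27.3% higher. A fall of at least 2-fold was called for 7 genes (Tlr1, Tlr2, Tlr3, Tlr7, Tlr9, Tlr13 and Cd14), against 7.06% of all tested genes. The libraries of the 2 groups did not overlap in FPKM for any of the 10 genes, as was the case for 61.7% of tested genes. The median log2 fold change was -1.50 over the 10 genes and -0.03 over all tested genes. In bulk RNA, fewer cells of a type and less RNA per cell cannot be told apart.

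When uridine was added to RANKL, the genes split. Tlr1, Tlr2, Tlr7 and Myd88 were higher than with RANKL alone, beside 18.6% of all tested genes called higher. Tlr4, Tlr13 and Cd14 were lower, beside 20.2% called lower. Tlr3, Tlr9 and Ly96 did not pass the test. No change in this comparison reached 2-fold, and the median log2 fold change was 0.21 over the 10 genes and 0.005 over all tested genes. Libraries did not overlap in FPKM for 7 of the 10 genes, against 51.7% of tested genes. Relative to control, RANKL + UD libraries remained lower for 9 genes (27.3% of tested genes), at least 2-fold for 6 of them (7.04%), and did not overlap for 9 (59.9%). These comparisons share libraries, so their values stand side by side and are not independent.

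**Figure D2:**
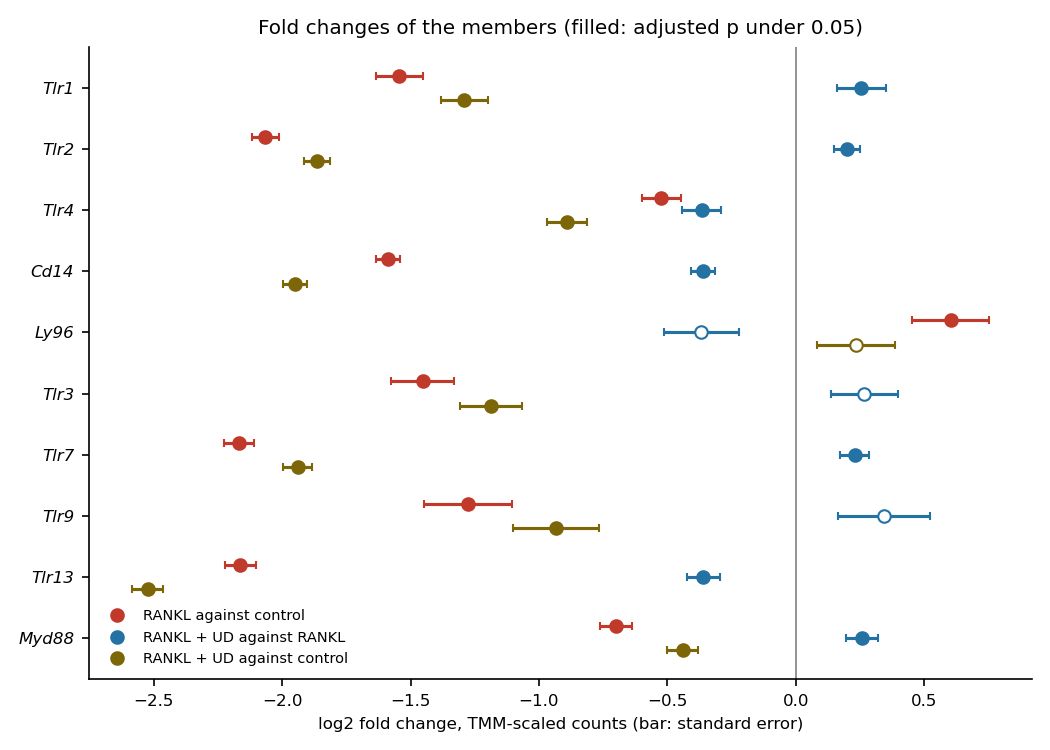
Log2 fold change of TMM-scaled counts (x axis) with its standard error for each gene in the 3 comparisons; filled points have an adjusted p under 0.05. RANKL against control lies between -2.17 and 0.60, whereas RANKL + UD against RANKL lies between -0.37 and 0.34.

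Tlr2 (ENSMUSG00000027995, chromosome 3) was the most abundant of the 7 receptors. It was measured at 159, 153 and 166 FPKM in control, at 34.8, 37.8 and 35.0 with RANKL, and at 44.4, 42.9 and 43.6 with RANKL + UD. The 3 groups were fully separated, with RANKL lowest. The log2 fold change was -2.06 (SE 0.051, adjusted p = 2.02e-18, edgeR) for RANKL against control and 0.20 (SE 0.051, adjusted p = 0.00396) for RANKL + UD against RANKL. Expressed as a share of the control mean FPKM, Tlr2 stood at 22.5% with RANKL and 27.4% with RANKL + UD. These shares lack the TMM scaling of the fold changes, so they are not on the same scale.

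Its partner Tlr1 (ENSMUSG00000044827, chromosome 5) showed the same order at a lower level. FPKM was 14.3, 14.6 and 15.5 in control, 4.94, 5.07 and 4.30 with RANKL, and 5.93, 5.57 and 6.63 with RANKL + UD. The fall with RANKL was -1.54 on the log2 scale (SE 0.091, adjusted p = 4.68e-12, edgeR). The difference between RANKL + UD and RANKL was 0.25 (SE 0.096, adjusted p = 0.0413) and lost its call in 9 of 17 alternative analyses, among them without RANKL replicate 3 (adjusted p = 0.169) and without RANKL + UD replicate 3 (adjusted p = 0.190). Of the 75-base runs in Tlr1 transcripts, 10.3% also occur in Tlr6, so part of the reads of these genes could be assigned to either.

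Tlr4 (ENSMUSG00000039005, chromosome 4), the lipopolysaccharide receptor, fell least of the 7 receptors. Its FPKM was 32.7, 33.2 and 30.8 in control, 23.5, 22.0 and 17.8 with RANKL, and 16.1, 18.3 and 17.8 with RANKL + UD. All control libraries were higher than all treated ones in FPKM. RANKL replicate 3 lay within the RANKL + UD range, also in FPKM, which carries no TMM scaling. The log2 fold change was -0.52 (SE 0.075, adjusted p = 4.14e-06, edgeR) for RANKL against control and -0.37 (SE 0.077, adjusted p = 0.000684) for RANKL + UD against RANKL. The latter was not called by limma on log2(FPKM + 1) (adjusted p = 0.0730) or on log2(FPKM + 0.1) (adjusted p = 0.0842). An unnamed gene on the same strand overlaps Tlr4 over 1557 bases of the whole gene spans, introns not set apart. That gene held 530 to 678 counts in control, 362 to 438 with RANKL and 322 to 422 with RANKL + UD. Tlr4 held at least 1657 counts in every library.

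Cd14 (ENSMUSG00000051439, chromosome 18), which delivers lipopolysaccharide to the Tlr4 complex, had the highest level. FPKM was 525, 520 and 523 in control, 163, 157 and 170 with RANKL, and 135, 140 and 131 with RANKL + UD. The groups formed 3 separate steps, each lower than the one before. The log2 fold change was -1.59 (SE 0.047, adjusted p = 3.39e-17, edgeR) with RANKL, a further -0.36 (SE 0.047, adjusted p = 3.26e-06) from RANKL to RANKL + UD, and -1.95 (SE 0.048, adjusted p = 2.40e-18) for RANKL + UD against control. Ranked by mean FPKM among the tested genes, Cd14 was at 55 in control, 243 after RANKL and 287 after RANKL + UD.

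Ly96 (ENSMUSG00000025779, chromosome 1) encodes MD-2, the subunit of the Tlr4 complex that holds the lipid, and was the only one of the 10 genes to rise with RANKL. FPKM was 8.55, 11.5 and 8.66 in control, 13.6, 15.7 and 11.9 with RANKL, and 13.4, 10.4 and 10.0 with RANKL + UD. RANKL libraries lay above control by a narrow margin, and the RANKL + UD libraries overlapped both groups. The rise was 0.60 on the log2 scale (SE 0.150, adjusted p = 0.00168, edgeR). RANKL + UD differed by -0.37 (SE 0.147, adjusted p = 0.0536) from RANKL and by 0.23 (SE 0.153, adjusted p = 0.207) from control. It had 141 to 310 counts per library, fewer than Tlr4 or Cd14.

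Within single libraries the parts of the lipopolysaccharide receptor complex stood in different proportions after RANKL. The ratio of Cd14 to Tlr4 FPKM was 15.7 to 17.0 in control, 6.95 to 9.58 with RANKL and 7.35 to 8.40 with RANKL + UD. The ratio of Tlr4 to Ly96 was 2.88 to 3.83 in control, 1.40 to 1.72 with RANKL and 1.20 to 1.78 with RANKL + UD. Both ratios separated control from both treated groups, and neither separated RANKL from RANKL + UD. Tlr2 to Tlr4 did separate all groups, at 4.62 to 5.38 in control, 1.48 to 1.97 under RANKL and 2.35 to 2.77 under RANKL + UD. An exact permutation test of 3 libraries against 3 cannot give a p below 0.1, so no p is attached to these ratios.

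Among the 10 genes, Tlr7 and Tlr13, both endosomal receptors, had the largest estimated falls. They were close to that of the surface receptor Tlr2 (log2 fold change -2.06), and the difference was not tested. Tlr7 (ENSMUSG00000044583, chromosome X) was at 99.9, 95.6 and 103 FPKM in control, 21.5, 21.9 and 19.1 with RANKL, and 24.8, 27.2 and 25.8 with RANKL + UD. Its log2 fold change was -2.17 (SE 0.057, adjusted p = 5.84e-18, edgeR) with RANKL and 0.23 (SE 0.058, adjusted p = 0.00342) from RANKL to RANKL + UD. All RANKL + UD libraries lay above all RANKL libraries and far below control.

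Tlr13 (ENSMUSG00000033777, chromosome X) fell as far with RANKL but moved the other way when uridine was added. FPKM was 47.7, 45.2 and 51.2 in control, 10.1, 10.2 and 10.0 with RANKL, and 8.40, 8.76 and 7.88 with RANKL + UD. The log2 fold change was -2.16 (SE 0.060, adjusted p = 1.27e-17, edgeR) with RANKL, -0.36 (SE 0.065, adjusted p = 0.000147) from RANKL to RANKL + UD and -2.52 (SE 0.062, adjusted p = 2.53e-18) for RANKL + UD against control. The ratio of Tlr7 to Tlr13 FPKM was 2.01 to 2.12 in control and 1.91 to 2.15 with RANKL, ranges that overlapped, but 2.96 to 3.27 with RANKL + UD, above every other library.

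**Figure D3:**
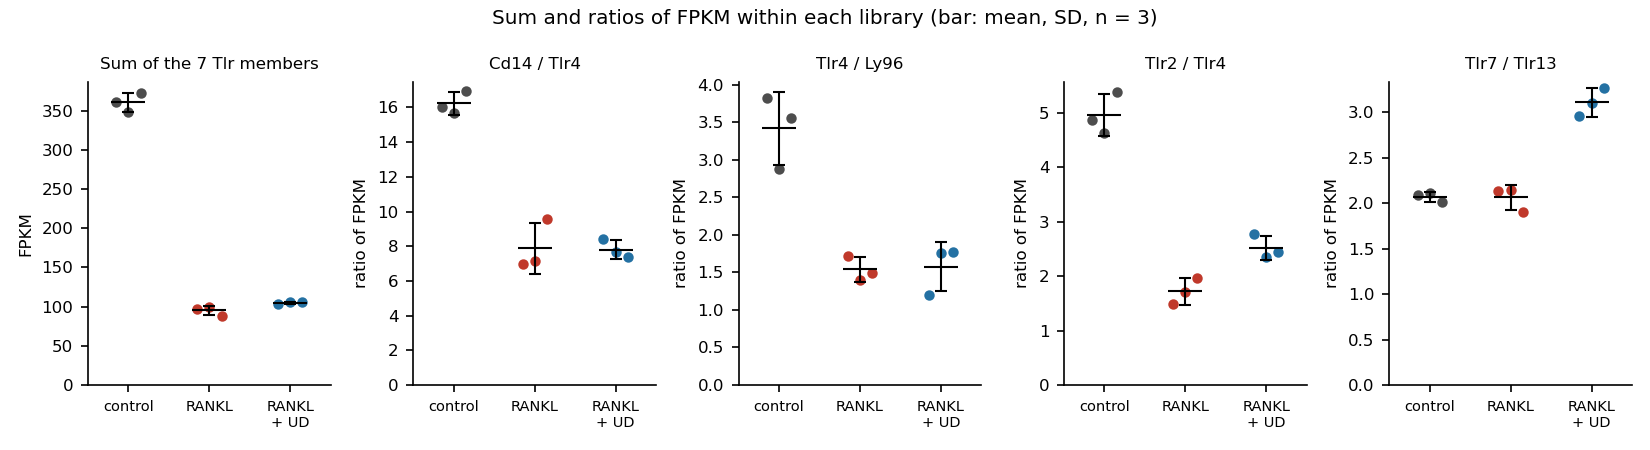
Sum of the 7 receptors' FPKM and 4 ratios of FPKM (y axes, linear from 0) in each library, with group mean and SD (n = 3). Cd14 to Tlr4 and Tlr4 to Ly96 separate control from the treated groups, and Tlr7 to Tlr13 separates RANKL + UD from both other groups.

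Tlr3 and Tlr9 had the lowest levels. Tlr3 (ENSMUSG00000031639, chromosome 8) was at 3.25, 3.31 and 3.44 FPKM in control, 1.11, 1.19 and 1.13 with RANKL, and 1.41, 1.45 and 1.53 with RANKL + UD. Its log2 fold change was -1.45 (SE 0.122, adjusted p = 1.54e-09, edgeR) with RANKL and 0.27 (SE 0.130, adjusted p = 0.114) from RANKL to RANKL + UD. The FPKM of RANKL + UD libraries all lay above those of RANKL, although the count test did not call the difference. It was called by limma on log2(FPKM + 1) (adjusted p = 0.00723). FPKM and that fit carry no TMM scaling, and the median log2 difference of all tested genes in that fit was 0.07.

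Tlr9 (ENSMUSG00000045322, chromosome 9) rested on 69 to 225 counts per library. FPKM was 3.21, 3.28 and 3.32 in control, 1.39, 1.38 and 1.03 with RANKL, and 1.70, 1.34 and 2.08 with RANKL + UD. The fall with RANKL was -1.28 on the log2 scale (SE 0.171, adjusted p = 1.67e-06, edgeR). RANKL + UD and RANKL libraries overlapped, at a log2 difference of 0.34 (SE 0.180, adjusted p = 0.144).

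Summed over the 7 receptors, FPKM was 348 to 373 in control, 88.4 to 99.6 with RANKL and 103 to 106 with RANKL + UD. FPKM carries no TMM scaling, whose factors were 0.959 to 0.962 in RANKL and 1.014 to 1.025 in RANKL + UD libraries. Scaling by these factors narrows the step from RANKL to RANKL + UD in the sum, so that step is not read as a rise. The makeup of that sum shifted. Tlr4 made up 8.26% to 9.52% of it in control, 20.1% to 24.1% with RANKL and 15.6% to 17.3% with RANKL + UD. Tlr2 made up 44.0% to 44.4%, 35.8% to 39.6% and 40.7% to 43.2%, and Tlr13 made up 13.0% to 13.7%, 10.2% to 11.3% and 7.48% to 8.30%, in the same order of groups. By mean FPKM, Tlr4 came after Tlr2, Tlr7 and Tlr13 among the receptors in control, but with RANKL it overlapped Tlr7 and lay above Tlr13.

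The adaptor Myd88 (ENSMUSG00000032508, chromosome 9) fell less than most receptors. FPKM was 26.7, 27.1 and 27.7 in control, 16.2, 15.7 and 15.4 with RANKL, and 20.2, 19.4 and 20.4 with RANKL + UD. The 3 groups did not overlap, and RANKL + UD lay between the others. The log2 fold change was -0.70 (SE 0.062, adjusted p = 3.37e-09, edgeR) with RANKL, 0.26 (SE 0.063, adjusted p = 0.00244) from RANKL to RANKL + UD and -0.44 (SE 0.061, adjusted p = 2.93e-06) for RANKL + UD against control. Acaa1a, on the opposite strand, overlaps Myd88 over 1736 bases and had a log2 fold change of -0.60 with RANKL and 0.23 from RANKL to RANKL + UD. Whether counting used the strand is not given in the sources used here, so reads of the overlap cannot be told apart.

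**Figure D4:**
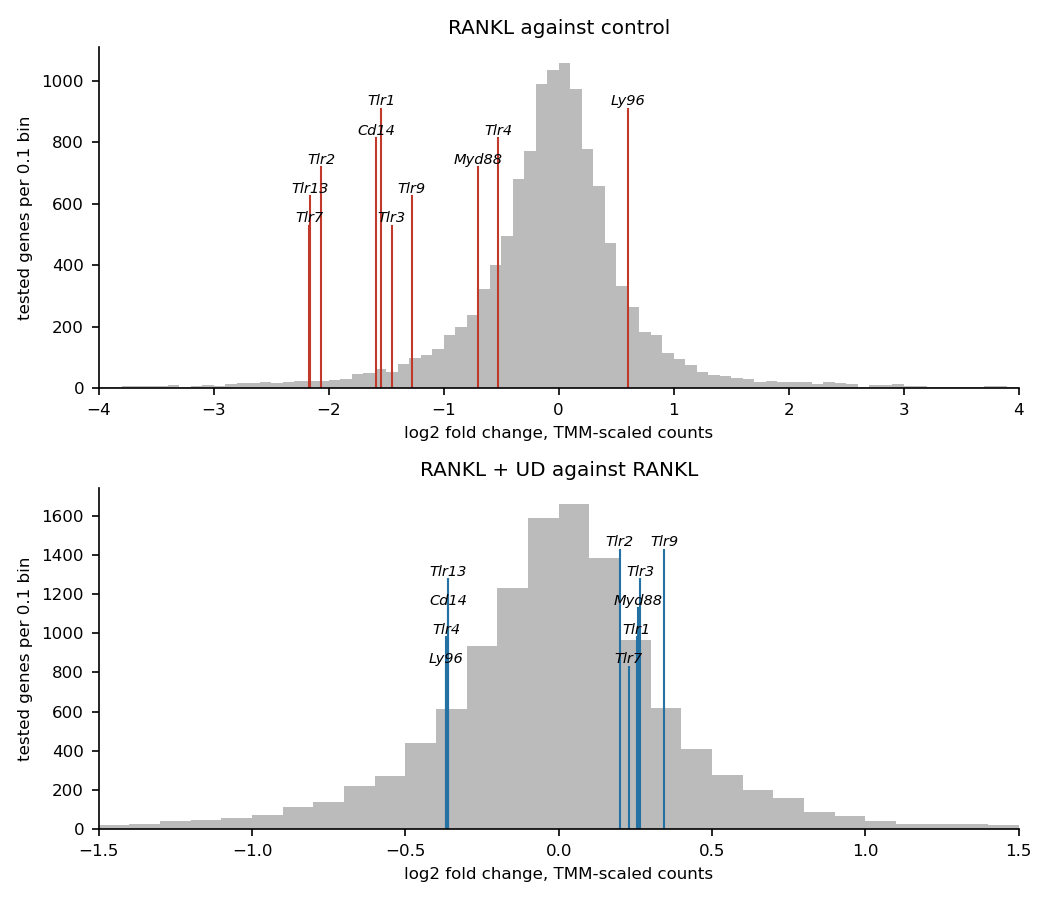
Log2 fold change (x axis) of all 11995 tested genes in bins of 0.1 (grey bars, number of genes; genes beyond the axis ends are not drawn), with the 10 genes marked by lines whose height has no meaning. With RANKL, 9 lines lie left of 0 and Ly96 at 0.60, and from RANKL to RANKL + UD all 10 lie within the main body of genes.

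Other genes of the pathway were counted from lists set by role, over the genes at 1 FPKM or more in all 9 libraries, as the 10 genes above were. Among all 10070 such genes, 29.0% were called higher and 30.8% lower with RANKL, and 20.1% higher and 21.4% lower with RANKL + UD than with RANKL. Of 5 further Toll-like receptors, 1 met that level in every library. Tlr8, an endosomal receptor that lies next to Tlr7 on chromosome X, was at 6.01, 6.10 and 6.31 FPKM in control, 0.27, 0.26 and 0.19 with RANKL and 0.21, 0.05 and 0.19 with RANKL + UD. It passed the filter through its control libraries alone, so no test is given. Tlr6, the other partner of Tlr2, fell by 0.80 on the log2 scale with RANKL (SE 0.101, adjusted p = 7.67e-07, edgeR) and differed by 0.01 (adjusted p = 0.944) between RANKL + UD and RANKL. Tlr11 and Tlr12 had no counts in any library, and Tlr5 had at most 2.

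Of 8 genes of ligand delivery and receptor trafficking, 6 fell (75%, beside 30.8% of all such genes) and 2 rose (25%, beside 29.0%) with RANKL. Ly86 encodes MD-1, a relative of MD-2, and went from 24.0 to 5.08 FPKM with RANKL and to 9.27 with RANKL + UD (log2 fold changes -2.16 and 0.78, adjusted p = 1.37e-13 and 6.72e-06, edgeR). Its partner Cd180 rose slightly with RANKL (0.25) and was lower with RANKL + UD (-0.30). Unc93b1, which escorts the endosomal receptors to endosomes, fell by 0.51 on the log2 scale, and the endolysosomal transporter Slc15a3 fell by 1.40.

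Among 4 adaptors other than Myd88, Tirap and Ticam2 fell, Pik3ap1 rose and Ticam1 did not pass the test with RANKL. Pik3ap1, an adaptor that links these receptors to phosphoinositide 3-kinase, went from 47.5 to 100.4 FPKM (log2 fold change 1.17, adjusted p = 6.00e-15, edgeR) and was at 76.0 with RANKL + UD (-0.49 against RANKL, adjusted p = 4.13e-08). Tirap, which brings Myd88 to Tlr2 and Tlr4, was higher with RANKL + UD than with RANKL (0.40, adjusted p = 0.000353), as was Myd88. Ticam1 and Ticam2, the adaptors of the interferon branch of Tlr3 and Tlr4, were lower with RANKL + UD (-0.72 and -0.47).

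Downstream, 16 kinases and ubiquitin ligases gave 3 higher (18.8%, beside 29.0%), 6 lower (37.5%, beside 30.8%) and 7 not called with RANKL. Most fold changes were small, and only Ikbke passed 2-fold (-1.94, adjusted p = 9.54e-14, edgeR). Of 8 transcription factors 2 rose (25%) and 4 fell (50%), with Irf7, a regulator of interferon genes, at -1.63 and Nfkb2 at 0.97. Of 8 negative regulators 5 rose (62.5%) and 2 fell (25%), among them Tnfaip3 (0.85) and Nfkbia (0.79), which restrain NF-κB, on the higher side and Irak3 (-1.56), which restrains Myd88 signalling, on the lower side.

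Of 14 response genes 4 were at 1 FPKM or more in every library. Tnf went from 60.5 to 21.6 FPKM with RANKL, Cxcl2 from 42.1 to 4.92 and Ccl4 from 42.2 to 16.4, and these 3 falls passed the test, whereas Ccl3 did not (log2 fold change 0.07, adjusted p = 0.262, edgeR). Cxcl2 was lower still with RANKL + UD (-0.89 against RANKL, adjusted p = 0.000329). A further 5 response genes passed the filter only through some of the libraries and are given as mean levels without a test against control. Ptgs2 was at 10.9, 0.907 and 0.763 FPKM in control, RANKL and RANKL + UD, and Il1b at 1.35, 0.243 and 0.23. In the same order of groups Cxcl10 was at 2.40, 0.390 and 0.993, so it was higher with RANKL + UD than with RANKL. All 3 reached the filter through control. Nos2, inducible nitric oxide synthase, reached it through RANKL, with means of 0.483, 2.40 and 0.987 FPKM in control, RANKL and RANKL + UD. Ccl5 stayed below 1 FPKM on average in all groups. Over all 49 pathway genes at the level in every library, 13 rose (26.5%, beside 29.0% of all such genes) and 24 fell (49.0%, beside 30.8%) with RANKL. Between RANKL + UD and RANKL, 6 were higher (12.2%, beside 20.1%) and 12 lower (24.5%, beside 21.4%).

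**Figure D5:**
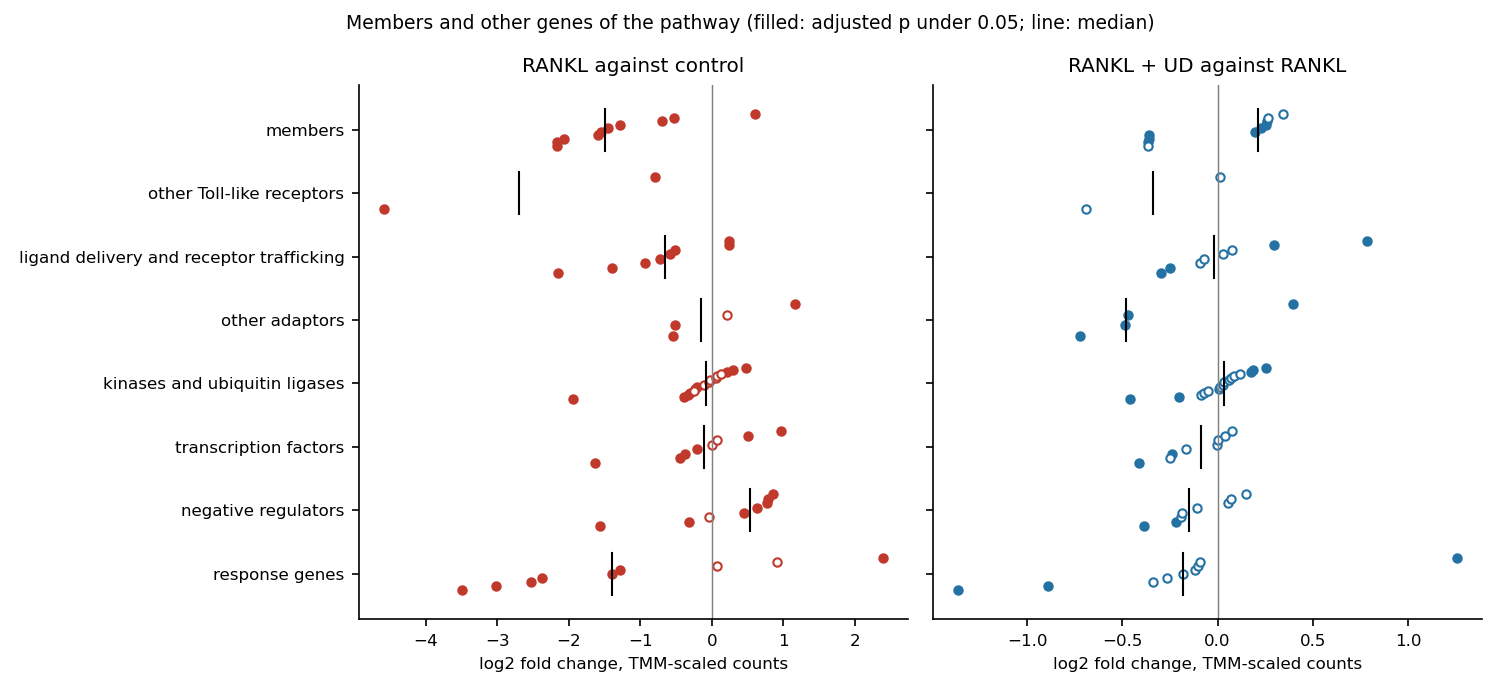
Log2 fold change (x axis) of the 10 genes and of the other pathway genes by list (rows), for RANKL against control and RANKL + UD against RANKL; filled points have an adjusted p under 0.05 and the black line is the median of the row. All tested genes are drawn, including Tlr8, Ptgs2, Il1b, Cxcl10, Nos2 and Ccl5, which reached 1 FPKM in only some libraries. The fill of these genes is not read as a result, since libraries with high values decided their passing of the filter. The same holds for the medians of the rows that contain them. The median is -1.50 for the 10 genes and -0.07 for kinases and ubiquitin ligases with RANKL.

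Cell type markers also differed between the groups, not all in the direction of the receptors. Summed over 6 macrophage markers, FPKM ranged from 8905 to 9505 in control, from 2460 to 2698 under RANKL and from 2136 to 2272 under RANKL + UD. Most of this sum came from Lyz2. Within that list Adgre1, Itgam, Csf1r and Lyz2 fell with RANKL, whereas Cd68 and Spi1 rose. By mean FPKM, Adgre1 was higher with RANKL + UD than with RANKL (12.6 against 10.1), whereas Cd68, Itgam, Csf1r, Lyz2 and Spi1 were lower. Of 8 osteoclast markers 7 were tested, and the FPKM of the whole list summed to between 46.7 and 49.9 in control libraries, between 2639 and 2843 under RANKL and between 1665 and 1702 under RANKL + UD. Markers of T cells, neutrophils and fibroblasts were near 0, with Cd3e and Ly6g at 0 in all 9 libraries. Of the dendritic cell markers, Flt3 was at 0 throughout and Zbtb46 ranged from 0.28 to 0.35 FPKM in control, from 0.89 to 1.02 under RANKL and from 0.85 to 1.39 under RANKL + UD. The part of these shifts in the receptor levels was not tested.

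For each of the 10 genes, the tested genes whose log2(CPM + 1) followed it most closely over the 9 libraries were named by Pearson correlation, as a description, since the libraries share the same 3 groups. Cybb, the phagocyte oxidase subunit, was among the closest to both Tlr2 and Tlr7 (r = 0.999 for each), with mean levels of 594, 133 and 165 FPKM in control, RANKL and RANKL + UD. The other gene for Tlr2 was Il18rap (0.999) and for Tlr7 Add3 (0.999). Tlr13 was followed by Eepd1 and Cxcl16 (0.999 each) and Cd14 by Ctsl and Stom (0.999 each). Tlr1 was followed by Stx2 and Ikbke (0.996 each), Tlr3 by Alox5 (0.998) and Slco4a1 (0.997), and Myd88 by Jam2 and Rassf2 (0.995 each). Tlr9 was followed by Efr3a (0.996) and Pphln1 (0.988), Tlr4 by Rbpj-ps3 (0.990) and Ythdf3 (0.989), and Ly96 by Ccdc122 (0.971) and Dnttip1 (0.956). Over 0.99 there were 122 genes for Tlr2, 1 for Tlr9 and none for Tlr4 or Ly96.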

How the data were processed

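RNA-seq was deposited for 9 RAW264.7 libraries (3 per group). The authors deposited raw counts per gene and FPKM, normalized for length and depth. The submitters' processing notes name mm10, but 0 of 10 members have the coordinates of the GRCm38 annotation (1435 of 52073 shared genes do), so gene positions are not printed. The aligner and counter are not given in the sources used here. Counts were scaled by TMM and fitted for all 9 libraries with edgeR 4.0.16 (R 4.3.3), with genes kept at FPKM of at least 1 in 3 or more libraries, and p-values were adjusted by Benjamini-Hochberg over 11995 genes. Standard errors came from the log2 fold change and the F statistic. The fit was tested on simulated data. Alternatives were DESeq2 1.42.0, limma 3.58.1 on log2(FPKM + 1) or log2(FPKM + 0.1), other scalings, no filter, 6 libraries, a replicate block and leaving out each library. List counts at 1 FPKM in every library were chosen after seeing the data. Members and lists were chosen with earlier results of these data known. Named were the members, list genes called with at least 2-fold change, and the 2 closest genes per member; other list genes were named after their values were seen. A further marker list is not reported here.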

Additional observations from a re-analysis of the deposited data

How the results depend on the processing

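Under the 17 alternatives, all calls of the 10 genes against control kept their direction and side of the threshold (170 of 170 values for each treated group). At 2-fold, limma on log2(FPKM + 1) left 6 of 7 genes with RANKL (Tlr9 at -0.92) and 5 of 6 with RANKL + UD (Tlr3 at -0.81), and without RANKL + UD replicate 3 there were 7 in the latter (Tlr9 at -1.09). For RANKL + UD against RANKL, 146 values kept their call, 13 gained one and 11 lost one, and none reversed. Tlr1 lost its call in 9 alternatives and Tlr4 in the 2 limma fits, Ly96 gained one in 9 (lowest adjusted p = 0.0156), Tlr3 in 3 and Tlr9 in 1. The 3 for Tlr3 were the 2 limma fits and the scaling by total counts, which all lack TMM scaling. The cause was not tested. Over all alternatives, 3 to 5 of the 10 genes were called higher and 2 to 4 lower. Between groups, correlations of deviations were -0.03 to 0.17 for libraries of the same replicate number and -0.18 to 0.11 for the others. These ranges overlap, so whether the numbers pair the libraries is not settled. With the replicate block 4 were higher and 4 lower. Scaling by total counts moved the median of all genes to -0.12 for RANKL against control and to 0.09 for RANKL + UD against RANKL. The share of calls that were higher was then 36.8% (47.5% with TMM) and 66.2% (48.0%), with 3350 genes higher in place of 2233, and under limma 1539 or 1488 lower in place of 2418. At 69 to 225 counts per library, Tlr9 had the largest standard error of the 10 genes.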
